A study of Mus musculus with 8 samples.

Results

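The genes described here encode the machinery of DNA replication. They are 43 genes chosen by symbol from textbook knowledge of the process, and they cover the licensing of origins, the start of replication, the polymerases and their helpers, and the supply of deoxynucleotides. The platform annotation assigns 95 probe sets to these symbols alone, of 45101 probe sets on the array, and 2 further probe sets that carry a second symbol beside Orc4 or Tyms were not used. Of the 95 probe sets, 88 exceeded a low signal floor of 37.0 in at least 2 arrays. Every one of the 43 genes kept at least 1 probe set, and the probe set with the highest mean signal stood for its gene among 14024 genes tested. The 43 probe sets used were above the floor on all 8 arrays, and the lowest signal among them was 84.3, for Tyms.

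The study measured total RNA of mouse pluripotent cells on 8 Affymetrix 3' expression arrays, 2 for each of 4 cell lines. The groups were iPS line 1, iPS line 2 and iPS line 3, each an induced pluripotent stem (iPS) cell line described as free of integrated vectors, and an embryonic stem (ES) cell line as the control. All 4 lines were C57BL/6 and male, were kept in N2B27 medium with mouse leukaemia inhibitory factor, and were sampled between passage 7 and passage 10. The sources used here do not name the somatic cells that gave rise to the iPS lines, the factors or the vectors. The ES group is a single line, so a difference shared by the iPS lines and a peculiarity of this ES line cannot be told apart. The titles call the 2 arrays of a line biological replicates, and nothing says that they came from separate cultures, so p-values measure no more than how far these arrays spread, which may be technical.

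DNA replication is prepared in G1 phase, when the origin recognition complex (ORC) marks origins and CDC6 and CDT1 load the ring-shaped MCM2-7 helicase onto DNA. At the start of S phase CDC45 and the GINS complex join the loaded rings to make the active helicase. DNA polymerase alpha with primase then lays primers, the clamp loader RFC places the sliding clamp PCNA, and polymerases delta and epsilon copy the strands. Mouse pluripotent cells are known for fast divisions with a short G1 phase and for large stores of these proteins, and many of the genes are known targets of the E2F transcription factors.

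Array signals shared the same trimmed mean. Their medians were 62.0 and 64.2 in iPS line 2, the highest, and 54.0 to 59.7 on the other 6 arrays. Between 58.1% and 61.4% of probe sets exceeded the floor. All 8 pluripotent cell markers on the list used (Pou5f1, Nanog, Sox2, Zfp42, Esrrb, Dppa4, Tdgf1 and Utf1) were above the floor on every array. Their summed signal was 68654 to 71968 in iPS line 1, 68981 to 69521 in iPS line 2, 71643 to 73381 in iPS line 3 and 73828 to 78139 in ES cells. Of the 8, 3 fell in iPS line 2, where 10.6% of all genes tested fell. They were Dppa4 (-0.80 ± 0.08 log2 units, adjusted p = 2.06e-05), Utf1 (-0.86 ± 0.15, adjusted p = 0.000847) and Pou5f1 (-0.23 ± 0.06, adjusted p = 0.0153). None of the 8 was called in iPS lines 1 and 3. Of 9 fibroblast markers measured, the summed signal was 242 to 271, 416 to 476 and 246 to 279 in iPS lines 1, 2 and 3, against 224 to 238 in ES cells. Col1a1, Postn, Dcn and Twist2 were at or under the floor on both arrays of every line. Of the 4 fibroblast markers with enough signal to be tested, Pdgfrb rose in iPS line 2 (1.68 ± 0.31, adjusted p = 0.00169), with a mean signal of 212 ± 49.2 there and 57.1 ± 1.63 in ES cells (SD, n = 2). Of 9 markers of differentiated lineages, the sums were 555 to 574, 513 to 531 and 598 to 638 in iPS lines 1, 2 and 3, against 465 to 553 in ES cells, and 1 of the 8 tested, Pax6, rose in iPS line 3 (1.20 ± 0.24, adjusted p = 0.013). For the beta-actin control probes, the signal at the 3' end over that at the 5' end, which reflects RNA integrity and labelling, was 1.74 and 1.79 in iPS line 2 and at most 1.62 on the other 6 arrays. The same ratio for Gapdh overlapped, with 0.915 and 0.946 in iPS line 2 and 0.856 to 0.935 on the other 6. Whether these markers or these ratios have a part in the differences of iPS line 2 given below was not tested. In bulk RNA, fewer cells in a given state and less RNA per cell cannot be told apart.

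Replication genes lay close to their ES level in iPS lines 1 and 3 and moved in both directions in iPS line 2. Against ES cells, 15 of the 43 genes changed in iPS line 2 (5 higher and 10 lower), 1 changed in iPS line 1 (Gins2, lower) and none changed in iPS line 3. A change is an adjusted p under 0.05 in limma over all 14024 genes. The 15 genes of iPS line 2 are 34.9% of the 43, beside 26.7% of all genes tested. The 5 higher genes are 11.6%, beside 16.1% of all genes, and the 10 lower genes are 23.3%, beside 10.6%. This balance depends on the scaling and on the probe sets: it was 8 higher and 8 lower with quantile normalization (18.6% each, beside 13.6% and 12.2% of all genes), 3 and 25 with arrays centred on their medians (6.98% and 58.1%, beside 8.19% and 23.4%), and 2 and 8 with all probe sets of a gene averaged (4.65% and 18.6%, beside 12.2% and 8.54%). Without ES control replicate 2, which leaves the ES group a single array, the calls of Orc3, Mcm4, Mcm5, Mcm8, Gins1, Cdc45, Rfc5 and Fen1 were lost. The 1 gene of iPS line 1 is 2.33% of the 43, and 2.33% of all genes changed there (1.21% higher and 1.12% lower). In iPS line 3, 4.14% of all genes changed (1.58% higher and 2.57% lower), and 6 replication genes had an unadjusted p under 0.05 (3 higher and 3 lower), 14.0% of the 43 beside 17.6% of all genes.

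The sizes were small. The median difference of the 43 genes from ES cells was -0.03 on the log2 scale in iPS line 1, 0.00 in iPS line 2 and 0.00 in iPS line 3, beside 0.01, 0.07 and -0.01 over all genes tested. Within 0.1 log2 units (1.07-fold) of the ES level lay 32 of the 43 genes in iPS line 1, 17 in iPS line 2 and 35 in iPS line 3. That is 74.4%, 39.5% and 81.4% of them, beside 36.1%, 20.4% and 31.8% of all genes tested. These genes were also brighter than most, with a median signal of 3276 beside 318 over all genes, and were measured with less error. Their median SE for a line against ES cells was 0.07, beside 0.16 over all genes, so small differences pass the test more easily among them. A smaller error by itself also puts more genes within 0.1 log2 units and narrows the intervals. The shares above, and those of the intervals below, therefore do not show that these genes keep closer to the ES level than others. The 95% interval of the difference lay within 0.5 log2 units (1.41-fold) of the ES level for 41 of the 43 genes in iPS line 1, 34 in iPS line 2 and 42 in iPS line 3, beside 46.4%, 32.8% and 45.1% of all genes.

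**Figure D1:**
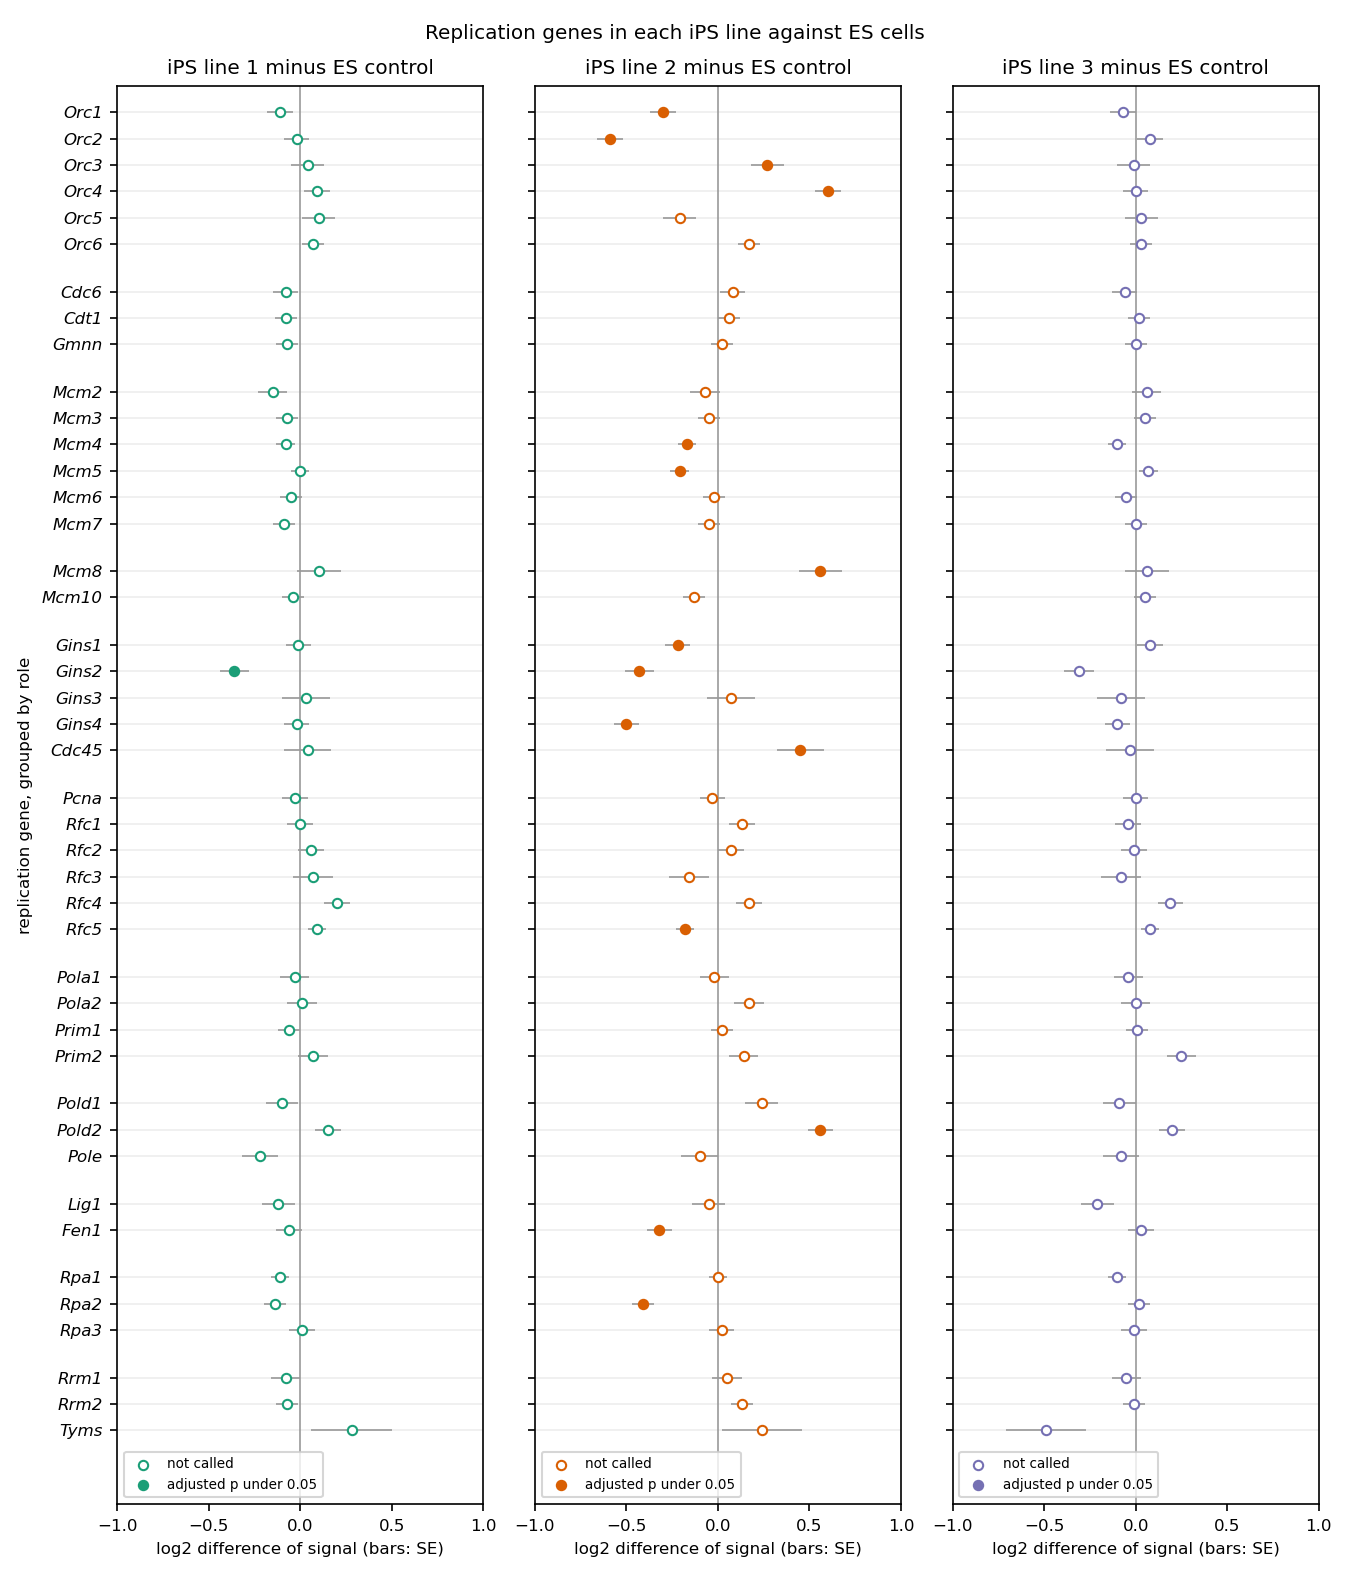
Difference from ES cells of each of the 43 replication genes (log2 signal, x axis) in iPS line 1, iPS line 2 and iPS line 3, ordered by role down the page, with bars of 1 SE and filled points for an adjusted p under 0.05. Filled points number 1 in iPS line 1, 15 in iPS line 2 on both sides of 0, and none in iPS line 3.

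When the 3 iPS lines were averaged and set against ES cells, 4 of the 43 genes changed, which is 9.3%, beside 7.29% of all genes tested. Orc4 and Pold2 rose (4.65%, beside 4.26% of all genes), and Gins2 and Rpa2 fell (4.65%, beside 3.02%). With all probe sets of a gene averaged, Orc4 was at -0.10 and not called, which left 1 gene higher and 2 lower (2.33% and 4.65%, beside 2.66% and 2.34% of all genes). The lines share the same 2 ES arrays, so their differences from ES cells are not independent of each other. Each of the 4 calls in this mean was lost without ES control replicate 1 and also without ES control replicate 2. With iPS lines 1 and 3 alone averaged against ES cells, in the fit to all 8 arrays, only Gins2 was called. Pold2 and Rfc4 were above both ES arrays on all 6 iPS arrays (4.65% of the 43 genes, beside 7.16% of all genes), and Orc1, Mcm4 and Gins2 were below both (6.98%, beside 5.74%). Line by line, 7 genes were above and 9 below both ES arrays in iPS line 1 (16.3% and 20.9%, beside 23.6% and 20.8% of all genes), 16 above and 15 below in iPS line 2 (37.2% and 34.9%, beside 37.0% and 24.5%), and 9 above and 8 below in iPS line 3 (20.9% and 18.6%, beside 23.5% and 24.9%).

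A promoter sequence of the E2F type was common among these genes. RefSeq promoter windows (build GRCm38.p6, 250 bases before to 50 bases after the transcription start) were at hand for 35 of the 43 genes. Some genes have several windows. The E2F-type sequence TTTNNCGC, searched on both strands, occurred in at least 1 window of 15 of these 35 genes (42.9%), beside 1602 of 27025 genes with a window (5.93%). Of the genes that fell in iPS line 2, Mcm4, Gins1, Gins2 and Gins4 had no window. The sequence was present in 2 of 5 genes that rose in iPS line 2, in 2 of 6 that fell and in 11 of 24 that were not called. With all probe sets of a gene averaged, where Orc1 and Orc3 are no longer called, these numbers were 1 of 2, 1 of 6 and 13 of 27. The 200 bases before the start are shown for 1 gene that rose (Orc3, on the probe set tested), 2 that fell (Orc1, likewise, and Mcm5) and 2 that were not called (Mcm6 and Gins3), with each match in capitals, written 5′ to 3′ in the direction of transcription. The windows are chr4:108579254-108579453 on the plus strand for Orc1, chr4:34614943-34615142 on the minus strand for Orc3, chr8:75109309-75109508 on the plus strand for Mcm5, chr1:128359706-128359905 on the minus strand for Mcm6 and chr8:95633359-95633558 on the plus strand for Gins3.
Orc3: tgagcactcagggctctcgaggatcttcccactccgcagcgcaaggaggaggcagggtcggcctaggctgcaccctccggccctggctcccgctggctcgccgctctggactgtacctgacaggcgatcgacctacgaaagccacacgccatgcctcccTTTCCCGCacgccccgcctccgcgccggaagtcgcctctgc
Orc1: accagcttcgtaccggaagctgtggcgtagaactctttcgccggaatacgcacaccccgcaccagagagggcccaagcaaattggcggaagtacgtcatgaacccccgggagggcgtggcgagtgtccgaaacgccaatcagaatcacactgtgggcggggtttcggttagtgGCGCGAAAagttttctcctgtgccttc
Mcm5: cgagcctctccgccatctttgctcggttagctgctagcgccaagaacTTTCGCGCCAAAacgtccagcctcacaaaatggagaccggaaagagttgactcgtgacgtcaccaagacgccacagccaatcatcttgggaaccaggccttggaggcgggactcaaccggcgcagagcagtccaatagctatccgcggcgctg
Mcm6: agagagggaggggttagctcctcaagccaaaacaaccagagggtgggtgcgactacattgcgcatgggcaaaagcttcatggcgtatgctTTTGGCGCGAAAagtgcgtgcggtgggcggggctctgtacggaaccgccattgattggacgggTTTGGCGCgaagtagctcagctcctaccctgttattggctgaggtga
Gins3: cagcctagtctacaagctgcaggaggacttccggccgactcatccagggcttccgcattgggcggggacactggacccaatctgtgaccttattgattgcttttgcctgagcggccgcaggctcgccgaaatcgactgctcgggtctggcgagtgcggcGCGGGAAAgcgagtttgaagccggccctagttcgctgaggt
The matches began 41 bases before the start in Orc3, 27 in Orc1 and 41 in Gins3. In Mcm5 a pair of matches on opposite strands, 153 and 149 bases before the start, overlap and appear as 1 run of capitals. Mcm6 has such an overlapping pair, 110 and 106 bases before the start, and a further match 47 bases before it. A match is a description of the sequence and not evidence that a factor binds there.

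Of the 6 subunits of the origin recognition complex, 2 rose (Orc3 and Orc4) and 2 fell (Orc1 and Orc2) in iPS line 2 on the probe sets tested. That is 33.3% in each direction, beside 16.1% and 10.6% of all genes, in a small group of genes. None was called in iPS lines 1 and 3. All 3 probe sets of Orc2 were lower in iPS line 2, whereas with all probe sets averaged Orc4 was at -0.09, Orc3 at -0.13 and Orc1 at 0.06, turned in direction and not called. Orc2, a core subunit of the ring, had signals of 2170 and 1964 in iPS line 1, 1393 and 1364 in iPS line 2, 2241 and 2174 in iPS line 3, and 2115 and 2058 in ES cells. Both arrays of iPS line 2 lay below the other 6, those of iPS line 1 overlapped ES cells and those of iPS line 3 were the highest. The difference between iPS line 2 and ES cells was -0.59 ± 0.07 log2 units (SE, 1.51-fold lower, adjusted p = 8.66e-05). Orc4, one of the subunits that bind ATP, had signals of 1602 and 1570 in iPS line 1, 2180 and 2334 in iPS line 2, 1499 and 1472 in iPS line 3, and 1509 and 1467 in ES cells. Both arrays of iPS line 2 lay above all others, at 0.60 ± 0.07 log2 units over ES cells (1.51-fold, adjusted p = 7.3e-05), and the mean of the 3 lines was 0.23 ± 0.06 (adjusted p = 0.0348).

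Orc1, the ATPase subunit that joins the complex in G1, had signals of 2154 and 2171 in iPS line 1, 1914 and 1884 in iPS line 2, 2179 and 2284 in iPS line 3, and 2393 and 2289 in ES cells. Every iPS array was under both ES arrays, and only iPS line 2 passed the test (-0.30 ± 0.07, adjusted p = 0.00543). Orc3, a subunit with no ATPase activity of its own, had signals of 1869 and 1898 in iPS line 1, 2460 and 2001 in iPS line 2, 1847 and 1793 in iPS line 3, and 1831 and 1837 in ES cells. The arrays of iPS line 2 were the highest but differed from each other more than those of any other line, and the difference was 0.27 ± 0.09 (adjusted p = 0.0395). Orc5 and Orc6 were at -0.21 ± 0.09 (adjusted p = 0.0993) and 0.17 ± 0.06 (adjusted p = 0.0564) in iPS line 2.

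Several of these calls rest on single arrays or on 1 probe set. The call of Orc3 in iPS line 2 was lost without any 1 of the 8 arrays other than iPS line 2 replicate 2 (0.13 to 0.28, adjusted p between 0.0509 and 0.337), and it was 0.13 without iPS line 2 replicate 1. That of Orc1 was lost without ES control replicate 1 (-0.27, adjusted p = 0.0568). The call of Orc4 in the mean of the lines was lost without any 1 array other than iPS line 2 replicate 1 (0.21 to 0.25, adjusted p between 0.0519 and 0.244).

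The 15 genes called in iPS line 2 could be checked against other probe sets of the same gene. Mcm8, Gins4, Rfc5 and Pold2 have 1 probe set over the floor, so no second measurement exists for them here. Among the other 11, every further probe set had the sign of the one tested for 8 genes (Orc2, Mcm4, Mcm5, Gins1, Gins2, Cdc45, Fen1 and Rpa2), while Orc1, Orc3 and Orc4 had at least 1 of the opposite sign. A shared sign says little where the further difference is small. The further probe set of Gins1 was at -0.06, and that of Mcm4 overlapped, with 7818 and 9946 in iPS line 2 and 10424 and 8816 in ES cells. With all probe sets of a gene averaged, Mcm4, Gins1 and Cdc45 were not called (adjusted p = 0.245, 0.327 and 0.105). Both further probe sets of Orc2 were lower in iPS line 2 than in ES cells, by log2 differences of -0.40 and -0.69. The 3 further probe sets of Orc4 gave -0.38, -0.15 and -0.40, against 0.60 for the probe set tested. The brightest of these 3 had 358 and 356 in iPS line 2 and 501 and 440 in ES cells. The further probe set of Orc1 had 656 and 624 in iPS line 2 and 467 and 482 in ES cells, a difference of 0.42 against -0.30 for the one tested. The directions given for Orc1, Orc3 and Orc4 therefore hold for 1 probe set each.

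**Figure D2:**
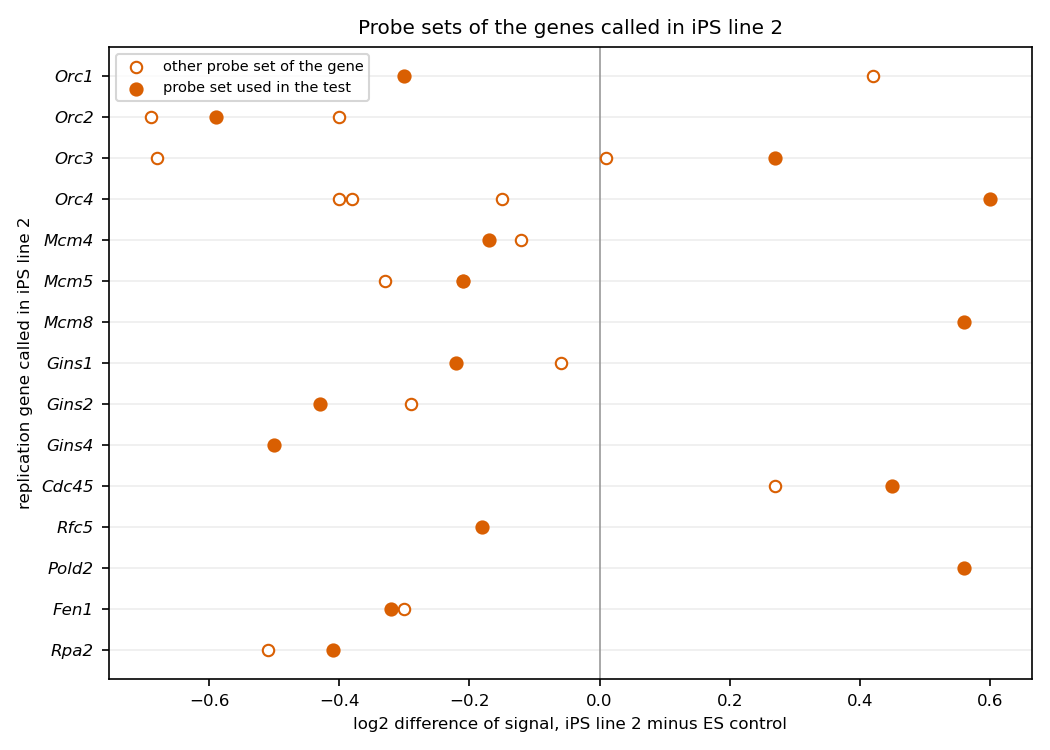
Difference between iPS line 2 and ES cells (log2 signal, x axis) for every probe set over the floor of the 15 replication genes called in iPS line 2, with the tested probe set filled and the others open. Open points lie on the other side of 0 from the filled point for Orc1, Orc3 and Orc4.

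The helicase loaders and their inhibitor stayed near the ES level in every line. Cdc6 and Cdt1, which load the helicase, and Gmnn (geminin), which blocks CDT1 after licensing, had no call in any comparison with ES cells. Cdc6 had signals of 2863 and 2742 in iPS line 1, 3236 and 3035 in iPS line 2, 2919 and 2767 in iPS line 3, and 2960 and 2966 in ES cells. Its arrays lay below ES cells in iPS lines 1 and 3 and above them in iPS line 2, and the line means differed from ES cells by no more than 0.08 log2 units in either direction. In the mean of the lines the 3 genes lay between -0.02 and 0.00, and their 95% intervals between -0.14 and 0.10.

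The MCM2-7 hexamer, the core of the helicase, changed in 2 of 6 subunits in iPS line 2 and in none in lines 1 and 3. In iPS line 2 that is 33.3%, beside 26.7% of all genes. With all probe sets of a gene averaged, Mcm4 was not called there (-0.15, adjusted p = 0.245). Mcm5 had signals of 16252 and 15460 in iPS line 1, 13939 and 13366 in iPS line 2, 16232 and 17130 in iPS line 3, and 15606 and 16066 in ES cells. The 2 arrays of iPS line 2 were the lowest (-0.21 ± 0.05 against ES cells, adjusted p = 0.0117). Mcm4 had signals of 13700 and 13863 in iPS line 1, 12613 and 13321 in iPS line 2, 13688 and 13671 in iPS line 3, and 14371 and 14867 in ES cells. The 6 iPS arrays were all lower than either ES array, and iPS line 2 passed the test (-0.17 ± 0.05, adjusted p = 0.0272). Mcm2, Mcm3, Mcm6 and Mcm7 had no call in any line. In the mean of the lines the 6 subunits lay between -0.12 and -0.02 log2 units, with interval bounds between -0.21 and 0.09. The call of Mcm5 was lost without ES control replicate 2 (-0.19, adjusted p = 0.0799) or iPS line 2 replicate 2 (-0.18, adjusted p = 0.0761), and that of Mcm4 without either ES array or iPS line 2 replicate 1 (-0.20 to -0.13, adjusted p between 0.0641 and 0.164).

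Beside the hexamer, Mcm8 rose in iPS line 2. It encodes a partner of MCM9 in homologous recombination. Its signals were 953 and 1107 in iPS line 1, 1550 and 1300 in iPS line 2, 941 and 1059 in iPS line 3, and 1049 and 873 in ES cells. iPS line 2 was above the other 3 lines on both arrays (0.56 ± 0.12 against ES cells, 1.48-fold, adjusted p = 0.00381). The call was lost without ES control replicate 2 (0.43, adjusted p = 0.0514). Mcm10, which helps to start DNA unwinding, was at -0.13 ± 0.06 in iPS line 2 (adjusted p = 0.143). With all probe sets of the gene averaged, Mcm10 was called lower there (-0.42, adjusted p = 0.0309). Its further probe sets were at -0.03 and -1.11, the latter with signals of 127 and 80.8 in iPS line 2 and 212 and 256 in ES cells.

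The activators of the helicase changed in 4 of 5 genes in iPS line 2 on the probe sets tested (80%, beside 26.7% of all genes, in a small group of genes). With all probe sets of a gene averaged, Gins1 (-0.14, adjusted p = 0.327) and Cdc45 (0.36, adjusted p = 0.105) were not called. Gins1, Gins2 and Gins4 fell and Cdc45 rose, while Gins3 was at 0.07 ± 0.13. Gins2, a subunit of the GINS complex, had signals of 1860 and 1601 in iPS line 1, 1698 and 1587 in iPS line 2, 1814 and 1768 in iPS line 3, and 2183 and 2262 in ES cells. On each of the 6 iPS arrays the signal was lower than on either ES array. The differences were -0.36 ± 0.08 (adjusted p = 0.0418), -0.43 ± 0.08 (adjusted p = 0.00199) and -0.31 ± 0.08 (adjusted p = 0.059) in lines 1, 2 and 3, and the mean was -0.37 ± 0.07 (95% interval -0.52 to -0.22, adjusted p = 0.00543). A second probe set of Gins2, with signals of 1230 and 1283, 1242 and 1367, and 1475 and 1203 in iPS lines 1, 2 and 3 and of 1530 and 1659 in ES cells, gave -0.34, -0.29 and -0.26. Gins2 is the only one of the 43 genes called in iPS line 1. The call in the mean was lost without ES control replicate 1 (-0.39, adjusted p = 0.0635) or replicate 2 (-0.34, adjusted p = 0.0859). That in iPS line 1 was lost without either ES array, iPS line 1 replicate 2 or either array of iPS line 3 (-0.39 to -0.26, adjusted p between 0.0611 and 0.251).

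Gins4 had signals of 3329 and 3143 in iPS line 1, 2422 and 2216 in iPS line 2, 2939 and 3181 in iPS line 3, and 3305 and 3263 in ES cells. The 2 values of iPS line 2 were the lowest of the 8 (-0.50 ± 0.07 against ES cells, 1.42-fold lower, adjusted p = 0.000255). Cdc45, the partner of GINS and MCM2-7 in the active helicase, had signals of 922 and 842 in iPS line 1, 1295 and 1062 in iPS line 2, 735 and 956 in iPS line 3, and 835 and 882 in ES cells. iPS line 2 gave the 2 highest values (0.45 ± 0.13, 1.36-fold, adjusted p = 0.0211), in the opposite direction to the GINS subunits that changed. Gins1 had signals of 4132 and 4192 in iPS line 1, 3730 and 3483 in iPS line 2, 4522 and 4340 in iPS line 3, and 4021 and 4371 in ES cells, and it was lowest on both arrays of iPS line 2 (-0.22 ± 0.07, adjusted p = 0.028). The call of Cdc45 was lost without either ES array or iPS line 2 replicate 1 (0.30 to 0.48, adjusted p between 0.0635 and 0.178), and that of Gins1 without ES control replicate 2 (-0.16, adjusted p = 0.219) or iPS line 2 replicate 2 (-0.17, adjusted p = 0.16).

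**Figure D3:**
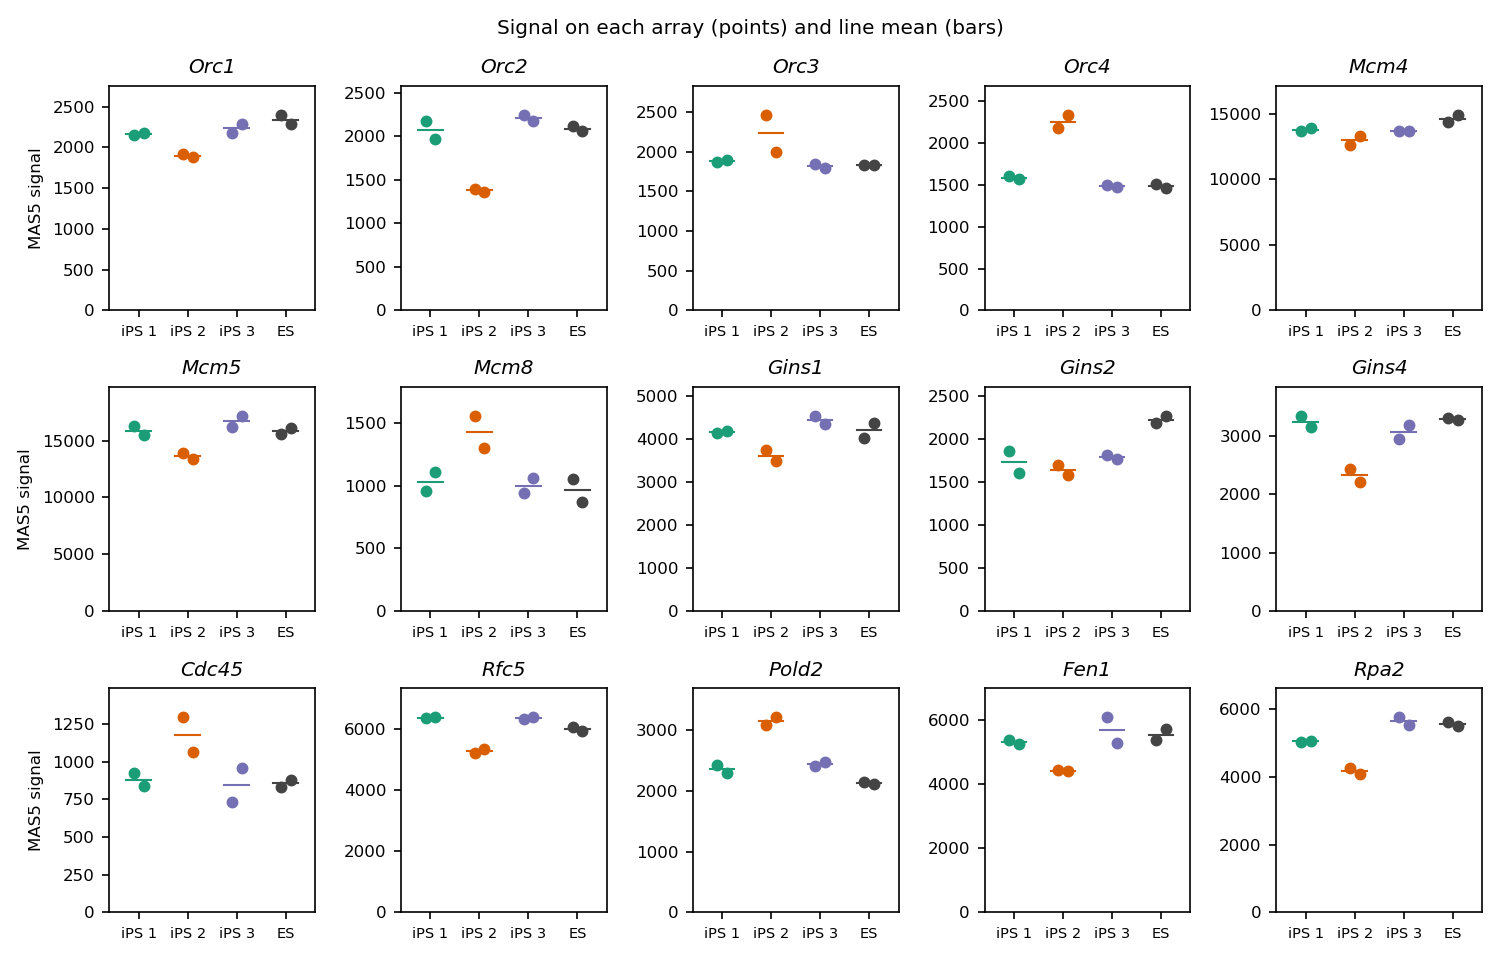
MAS5 signal (linear y axis from 0) on each array for the 15 replication genes called in at least 1 line or in the mean of the lines, with points for the 2 arrays and a bar for the mean of each line. Both points of iPS line 2 lie outside the range of the other 6 arrays for every gene shown except Gins2. All iPS points of Gins2 lie below both ES points.

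Of the sliding clamp and its loader, 1 of 6 genes changed, in iPS line 2 (16.7%, beside 26.7% of all genes). Rfc5, a small subunit of the clamp loader, had signals of 6370 and 6377 in iPS line 1, 5217 and 5348 in iPS line 2, 6335 and 6383 in iPS line 3, and 6065 and 5947 in ES cells. iPS line 2 gave the 2 lowest values (-0.18 ± 0.05 against ES cells, adjusted p = 0.0242). The call was lost without any 1 of the arrays of ES cells and iPS line 2 (-0.20 to -0.17, adjusted p between 0.0507 and 0.132). Rfc4, another small subunit, was described by array after its values were seen, because its groups did not overlap. It had signals of 3320 and 3428 in iPS line 1, 3319 and 3271 in iPS line 2, 3415 and 3277 in iPS line 3, and 2818 and 3057 in ES cells, and its mean difference was 0.18 ± 0.05 (adjusted p = 0.0583). Pcna, the clamp itself, was at -0.03 ± 0.07, -0.03 ± 0.07 and 0.00 ± 0.07 in lines 1, 2 and 3. Rfc1, the large subunit, and Rfc2 and Rfc3 lay between -0.16 and 0.13 in every line.

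DNA polymerase alpha and primase had no call against ES cells. Prim2, the large subunit of primase, had signals of 2001 and 2265 in iPS line 1, 2236 and 2239 in iPS line 2, 2300 and 2508 in iPS line 3, and 2044 and 2002 in ES cells. The arrays of iPS line 1 overlapped ES cells and those of lines 2 and 3 lay above them, and the mean was 0.16 ± 0.06 (adjusted p = 0.178). Pola1, the catalytic subunit, Pola2, its accessory subunit, and Prim1, the catalytic subunit of primase, lay between -0.06 and 0.17 in every line.

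Of the replicative polymerases, Pold2, the regulatory subunit of polymerase delta, rose. It had signals of 2423 and 2294 in iPS line 1, 3081 and 3209 in iPS line 2, 2400 and 2468 in iPS line 3, and 2140 and 2109 in ES cells. On each of the 6 iPS arrays the signal was higher than on either ES array, and those of iPS line 2 were the highest. The difference was 0.56 ± 0.07 (1.48-fold, adjusted p = 5.98e-05) in iPS line 2, 0.15 ± 0.07 (adjusted p = 0.336) in iPS line 1 and 0.20 ± 0.07 (adjusted p = 0.139) in iPS line 3. The mean was 0.30 ± 0.05 (1.23-fold, adjusted p = 0.00451). It was no longer called without ES control replicate 1 (0.31) or without ES control replicate 2 (0.29). With iPS lines 1 and 3 alone averaged against ES cells, Pold2 was not called (0.17, adjusted p = 0.145). Pold1, the catalytic subunit of polymerase delta, was at 0.24 ± 0.09 in iPS line 2 (adjusted p = 0.0626). Pole, the catalytic subunit of the leading strand polymerase, was at -0.22 ± 0.10, -0.10 ± 0.10 and -0.08 ± 0.10 in lines 1, 2 and 3.

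Of the enzymes that finish the lagging strand, Fen1 fell in iPS line 2. It encodes the nuclease that trims flaps between Okazaki fragments. Its signals were 5387 and 5262 in iPS line 1, 4459 and 4407 in iPS line 2, 6100 and 5292 in iPS line 3, and 5374 and 5727 in ES cells. Both arrays of iPS line 2 lay below the other 6 (-0.32 ± 0.07, 1.25-fold lower, adjusted p = 0.00494), and the call was lost without ES control replicate 2 (-0.28, adjusted p = 0.0545). Lig1, the ligase that joins the fragments, was at -0.12 ± 0.09, -0.05 ± 0.09 and -0.21 ± 0.09 in lines 1, 2 and 3.

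Replication protein A coats single-stranded DNA, and 1 of its 3 subunits changed in iPS line 2 (33.3%, beside 26.7% of all genes). Rpa2, the middle subunit, had signals of 5031 and 5073 in iPS line 1, 4275 and 4079 in iPS line 2, 5760 and 5524 in iPS line 3, and 5618 and 5494 in ES cells. The arrays of iPS line 3 overlapped ES cells, those of iPS line 1 lay below them and those of iPS line 2 lowest of all. The difference was -0.41 ± 0.06 in iPS line 2 (1.33-fold lower, adjusted p = 0.000245), and a second probe set gave -0.51. The mean of the lines was -0.18 ± 0.05 (adjusted p = 0.0445). It was not called without any 1 array other than iPS line 2 replicate 1 (-0.19 to -0.16). With iPS lines 1 and 3 alone averaged against ES cells, Rpa2 was not called (-0.06, adjusted p = 0.635). Rpa1, the large subunit, and Rpa3, the small one, lay between -0.11 and 0.02 in every line.

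Genes for the supply of deoxynucleotides had no call against ES cells. Rrm1, the large subunit of ribonucleotide reductase, had signals of 5859 and 4974 in iPS line 1, 6089 and 5773 in iPS line 2, 5713 and 5316 in iPS line 3, and 5602 and 5824 in ES cells, and each iPS line overlapped ES cells. Rrm2, its small subunit, lay between -0.07 and 0.13 in the lines. Tyms, thymidylate synthase, was dim on these arrays and at 0.28 ± 0.22, 0.24 ± 0.22 and -0.49 ± 0.22 in lines 1, 2 and 3, so its intervals are wide.

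The differences between iPS lines were tested directly. Between iPS line 2 and iPS line 1, 14 of the 43 genes changed (6 higher and 8 lower in iPS line 2), or 32.6%, beside 23.3% of all genes (13.7% higher and 9.51% lower). Between iPS line 2 and iPS line 3, 16 changed (7 higher and 9 lower in iPS line 2), or 37.2%, beside 31.1% of all genes (19.0% higher and 12.1% lower). Between iPS line 1 and iPS line 3, 0 changed, beside 1.38% of all genes (1.03% higher and 0.349% lower), and 4 had an unadjusted p under 0.05 (1 higher and 3 lower in iPS line 1), 9.3% of the 43 beside 14.0% of all genes. Orc2 was lower in iPS line 2 than in iPS line 1 by a log2 difference of -0.58 ± 0.07 (adjusted p = 0.000171) and than in iPS line 3 by -0.67 ± 0.07 (adjusted p = 2.53e-05). Gins4 was lower in iPS line 2 by -0.48 ± 0.07 (adjusted p = 0.000503) and -0.40 ± 0.07 (adjusted p = 0.00103) against lines 1 and 3. For Gins2 none of the 3 differences between iPS lines passed the test. The comparisons of iPS line 2 with lines 1 and 3 share the arrays of iPS line 2.

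Other genes of the process were read from lists of known factors, with the same fit. Of 32 other replication factors tested, 5 rose and 3 fell in iPS line 2, none changed in iPS lines 1 and 3, and 1 rose and 1 fell in the mean of the lines. Over all genes tested, 16.1% rose and 10.6% fell in iPS line 2, and 4.26% rose and 3.02% fell in the mean. No list was tested as a set. Cdc7, the kinase that activates loaded MCM2-7, averaged a signal of 1595 ± 26.8 in iPS line 1, 2648 ± 133 in iPS line 2, 1346 ± 18.7 in iPS line 3 and 1482 ± 6.19 in ES cells (SD, n = 2). It rose by 0.83 ± 0.07 log2 units in iPS line 2 (adjusted p = 5.29e-06) and by 0.27 ± 0.06 in the mean (adjusted p = 0.0155). Dbf4, the activating subunit of this kinase, named here after its value was seen, fell in iPS line 2 (-0.26 ± 0.05, adjusted p = 0.00237). Ticrr (treslin), which helps CDC45 to join, averaged 3088 ± 254 in iPS line 1, 2728 ± 28.4 in iPS line 2, 3294 ± 61.1 in iPS line 3 and 3729 ± 125 in ES cells, and fell in iPS line 2 (-0.45 ± 0.07, adjusted p = 0.000504) and in the mean (-0.30 ± 0.06, adjusted p = 0.00657). Top2a, the topoisomerase of dividing cells, and Chtf8, a subunit of an alternative clamp loader, rose in iPS line 2 by 0.37 ± 0.06 (adjusted p = 0.000371) and 0.34 ± 0.10 (adjusted p = 0.0214).

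The E2F and RB network had 3 higher and 0 lower calls among 18 genes in iPS line 2, 2 higher in iPS line 3 and none in iPS line 1. Among all genes, 16.1% were higher and 10.6% lower in iPS line 2, and 1.58% were higher in iPS line 3. E2f1, an activator of S phase genes, averaged 702 ± 43.4 in iPS line 1, 1213 ± 68.6 in iPS line 2, 849 ± 27.8 in iPS line 3 and 691 ± 0.173 in ES cells (SD, n = 2). It rose by 0.80 ± 0.09 in iPS line 2 (adjusted p = 4.76e-05) and by 0.37 ± 0.07 in the mean (adjusted p = 0.00909). E2f7, a repressor of the family, rose by 0.34 ± 0.09 in iPS line 2 (adjusted p = 0.0114) and by 0.26 ± 0.07 in the mean (adjusted p = 0.0485). Of the 15 replication genes with the E2F-type match, Mcm8 rose and Mcm5 fell in iPS line 2, Orc1 and Orc3 were called on 1 probe set each, and 11 were not called.

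Of 14 other nucleotide synthesis genes tested, 2 rose and 3 fell in iPS line 2, beside 16.1% and 10.6% of all genes. In the mean of the lines 1 rose and 3 fell, beside 4.26% and 3.02% of all genes. Umps, which completes uridine monophosphate, averaged 2946 ± 22.1 in iPS line 1, 1885 ± 245 in iPS line 2, 3120 ± 31.7 in iPS line 3 and 3241 ± 365 in ES cells, and fell by 0.78 log2 units in iPS line 2 (SE 0.09, adjusted p = 6.86e-05). Dtymk, thymidylate kinase, fell in iPS line 2 (-0.44 ± 0.06, adjusted p = 0.00011), and Cad, the first enzyme of pyrimidine synthesis, rose (0.33 ± 0.06, adjusted p = 0.00248). Tk1, thymidine kinase of the salvage pathway, was at -0.25 ± 0.07, -0.18 ± 0.07 and -0.21 ± 0.07 in lines 1, 2 and 3, none of them called, and fell in the mean (-0.21 ± 0.05, adjusted p = 0.035).

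Checkpoint and mitosis genes give the setting of the cell cycle. Their counts in iPS line 2 stand beside 16.1% of all genes that rose there and 10.6% that fell. Of 8 replication checkpoint genes, 2 rose in iPS line 2 and none changed in lines 1 and 3 or in the mean. Atr, the kinase that answers stalled forks, was at 0.40 ± 0.09 in iPS line 2 (adjusted p = 0.00409), and Chek1, its effector kinase, at -0.03 ± 0.06. Of 19 genes of G2 and mitosis, 2 rose and 1 fell in iPS line 2 and none changed in lines 1 and 3. Bub1, a kinase of the spindle checkpoint, rose (0.46 ± 0.06, adjusted p = 9.94e-05), Mki67, the Ki-67 proliferation antigen, rose (0.34 ± 0.06, adjusted p = 0.00144), and Kif20a, a motor protein of cytokinesis, fell (-0.43 ± 0.06, adjusted p = 0.000345). In the mean of the lines Kif20a alone was called (-0.19 ± 0.05, adjusted p = 0.0455).

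**Figure D4:**
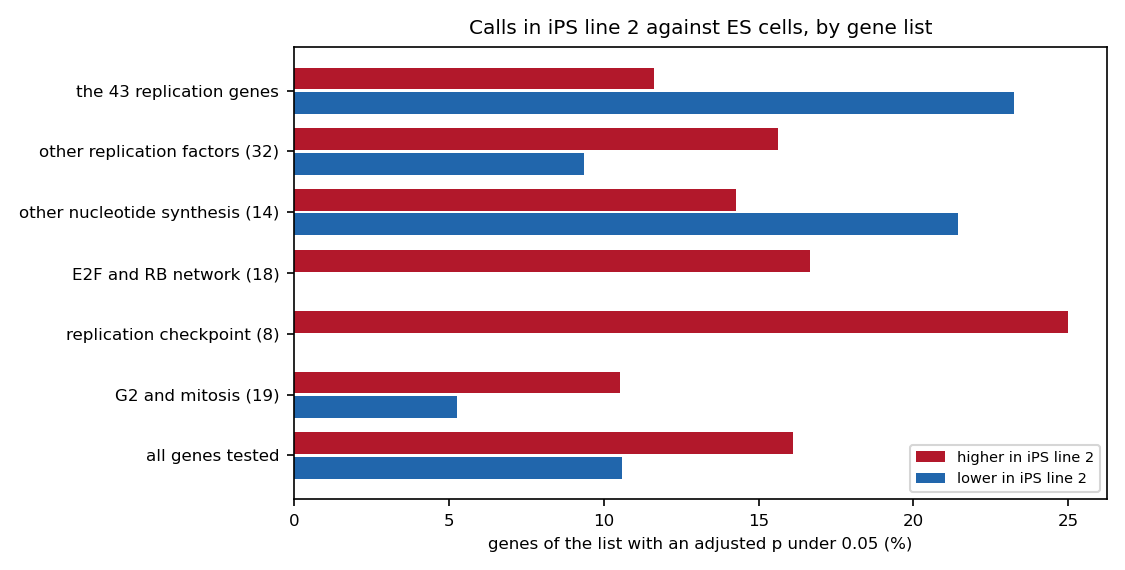
Share of each gene list called at an adjusted p under 0.05 in iPS line 2 against ES cells (%, x axis), with separate bars for genes higher and lower in iPS line 2 and the number of genes tested in brackets. The 43 replication genes have more lower (23.3%) than higher (11.6%) calls, while all genes tested have 10.6% lower and 16.1% higher, a balance that was 18.6% and 18.6% for the 43 genes with quantile normalization.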

How the data were processed

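The authors deposited 1 linear intensity signal per probe set and array. The submitters' processing notes name MAS5 without a version, and the sources used here give neither its scaling target nor its detection calls. Of the 45101 probe sets, 64 are array controls. The platform annotation gives 1 gene symbol for 34945, several for 932 and none for 9160. A RefSeq gene table held the entrez identifier of 34741 of those with 1 symbol, and 0 symbols needed an update. After trimming both ends, the mean signal was 500.004 on every array, so signals were used as deposited. The number of arrays limits the precision.

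Signals were turned into log2(signal + 12), with the 20th percentile of the whole table, 12, as pseudocount, a scale on which differences of dim genes are understated. Probe sets were kept if they exceeded 37.0, the 40th percentile, on 2 or more arrays, and 25765 of those with 1 symbol were. The floor stands in for detection calls. Signals of different probe sets are not comparable with each other.

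All 8 arrays entered 1 group-means model in limma 3.58.1 (R 4.3.3; lmFit and eBayes with trend), which left 4 residual degrees of freedom, 12.3 with the moderation. Two-sided tests were used, with Benjamini-Hochberg adjustment over 14024 genes. Errors are standard errors from limma unless given as SD. Of 7 comparisons, 1 set the average of the 3 iPS lines, weighted equally, against ES cells, 3 set a single line against ES cells and 3 set lines against each other. The procedure was tested on simulated data.

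All 43 genes are named. Signals by array are given for genes called against ES cells, and for the gene with the largest mean difference in a role group without one. Each other list names up to 4 genes by their adjusted p in the mean of the lines. The genes and lists were chosen with earlier results of these data known. Genes of the other lists without a probe set under their symbol alone were not analysed here. Replicate numbers did not pair the arrays, as deviations of arrays with the same number correlated between -0.0116 and 0.0286 across pairs of lines. Up to 21 alternatives covered normalization, pseudocount, filter, choice of probe set, variance model, replicate block and samples in the fit.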

Additional observations from a re-analysis of the deposited data

Results flagged for a closer look

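The replication genes given here differed between iPS line 2 and another iPS line in limma (adjusted p under 0.05). Of all genes tested, 23.3% differed between iPS line 2 and iPS line 1, and 31.1% between iPS line 2 and iPS line 3. The values are log2 differences, iPS line 2 minus the other line.

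In the origin recognition complex, Orc2 differed by -0.58 from iPS line 1 and by -0.67 from iPS line 3, and Orc4 by 0.50 and 0.60. Orc5, a small subunit, differed by -0.31 from iPS line 1, with signals of 2377 and 2581 in iPS line 2 and of 3392 and 2774 in iPS line 1, and the difference was -0.16 without iPS line 1 replicate 1 (adjusted p = 0.223) and -0.25 without iPS line 2 replicate 1 (adjusted p = 0.141). Orc1 differed by -0.23 and Orc3 by 0.28 from iPS line 3. Without iPS line 2 replicate 1, Orc3 was at 0.14 (adjusted p = 0.276).

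Among the helicase genes, Mcm5 differed by -0.22 from iPS line 1 and by -0.29 from iPS line 3, Mcm8 by 0.46 and 0.50, Gins1 by -0.21 and -0.30, Gins4 by -0.48 and -0.40, and Cdc45 by 0.41 and 0.48. Mcm10 differed by -0.19 from iPS line 3. Without iPS line 3 replicate 1, Cdc45 was at 0.29 against that line (adjusted p = 0.142). Without iPS line 2 replicate 1, it was at 0.27 against iPS line 1 (adjusted p = 0.253).

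In fork synthesis, Rfc5 differed by -0.27 from iPS line 1 and by -0.27 from iPS line 3, Pold1 by 0.34 and 0.34, Pold2 by 0.41 and 0.37, Fen1 by -0.26 and -0.36, and Rpa2 by -0.27 and -0.43. Pold1 had signals of 4082 and 3575 in iPS line 2, of 3009 and 3016 in iPS line 1 and of 3195 and 2861 in iPS line 3.

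In nucleotide supply, Rrm2 differed by 0.20 from iPS line 1, with signals of 21608 and 23792 in iPS line 2 and of 19133 and 20464 in iPS line 1. Without iPS line 2 replicate 2, the difference was 0.13 (adjusted p = 0.218). Tyms differed by 0.74 from iPS line 3, with signals of 178 and 183 in iPS line 2 and of 126 and 84.3 in iPS line 3. Without iPS line 3 replicate 2, it was 0.48 (adjusted p = 0.175).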

How the results depend on the processing

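Among the genes called as reported, Orc2, Gins4, Pold2 and Rpa2 kept their call in iPS line 2 under every alternative run (4 of 15 genes), as did Orc2, Gins4 and Pold2 against iPS line 1 (3 of 14) and Orc2, Mcm5, Gins4, Rfc5 and Rpa2 against iPS line 3 (5 of 16). None of the 4 genes called in the mean of the lines and not the 1 gene of iPS line 1 did. Among the genes called, directions turned only where all probe sets of a gene were averaged. Orc4 was then at -0.10 in the mean of the lines, -0.09 in iPS line 2 and -0.04 between iPS line 2 and iPS line 1, Orc1 at 0.06 in iPS line 2, and Orc3 at -0.13 in iPS line 2 and -0.18 between iPS line 2 and iPS line 3. The further probe sets given above show where this comes from.

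Counts of genes called moved with the scaling. With arrays centred on their medians, 8 genes were called in the mean (1 higher, 7 lower, with 2.81% and 7.14% of all genes), 28 in iPS line 2 (3 higher, 25 lower, with 8.19% and 23.4% of all genes) and 28 between iPS line 2 and iPS line 3 (1 higher, 27 lower, with 9.15% and 26.5% of all genes, against 7 and 9 as reported). Centring put the median of all genes at -0.15 in iPS line 2, against 0.07 as reported, and that of the 43 genes at -0.22, against 0.00, and nothing is read from this about the 43 genes. Centring ended the calls of Orc3 (0.06) and Cdc45 (0.23) in iPS line 2 and of Orc4 (0.15) in the mean. Quantile normalization gave 8 higher and 8 lower in iPS line 2. The run without probe sets ending in _x_at or _s_at also left out ES control replicate 1, so its lost calls cannot be assigned to the probe sets. It is among the alternatives counted above. Without the variance trend the counts were 0 in the mean, 0 in iPS line 1 and 7 in iPS line 2. They were then 4 between iPS line 2 and iPS line 1 and 8 between iPS line 2 and iPS line 3. With line means as samples the ES group is a single value, and no call in the mean was kept. With iPS lines 1 and 3 alone averaged against ES cells, in the fit to all 8 arrays, 1 gene was called. With no filter, or with only the groups compared, iPS line 1 had 0. With the filter at the 60th percentile, or with only the groups compared, iPS line 3 had 1. The causes were not tested. Where no share of all genes is given beside a count, nothing is read from it about the 43 genes.

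Leaving out 1 array at a time gave 0 to 5 genes in the mean, 0 to 1 in iPS line 1, 8 to 15 in iPS line 2 (8 without ES control replicate 2), 0 to 1 in iPS line 3, 7 to 13 between iPS line 2 and iPS line 1, 10 to 17 between iPS line 2 and iPS line 3 and 0 to 1 between iPS line 1 and iPS line 3. The line left with 1 array is then assumed to vary like the others. These counts are given without the shares of all genes, and nothing is read from them about the 43 genes as a set. With the replicate block the counts were those reported, 4 in the mean, 1 in iPS line 1, 15 in iPS line 2 and 0 in iPS line 3, and 14, 16 and 0 between lines, and the numbers do not pair the arrays. Alternatives were run for the 43 genes and not for the other lists. With 2 arrays a line, small differences of dim genes such as Tyms cannot be resolved.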

Other observations

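Some genes beside the 43 differed from ES cells in iPS line 3, where none of the 43 did. They were picked after their values were seen. Atic, an enzyme of purine synthesis, rose (0.56 ± 0.08 log2 units, adjusted p = 0.00192), as did Nme1, a nucleoside diphosphate kinase (0.33 ± 0.07, adjusted p = 0.0164). Rrm2b, a small subunit of ribonucleotide reductase used outside S phase, fell in iPS line 3 (-0.52 ± 0.13, adjusted p = 0.0438) and rose in iPS line 2 (0.50 ± 0.13, adjusted p = 0.013). Tfdp1 and Tfdp2, the DNA-binding partners of the E2F factors, rose in iPS line 3 (0.23 ± 0.06, adjusted p = 0.0419, and 0.46 ± 0.09, adjusted p = 0.0116). Atic was also lower in iPS line 1 than in iPS line 3 (-0.41 ± 0.08, adjusted p = 0.0283). No alternative was run for these genes.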
